A study of Rattus norvegicus with 14 samples.

Results

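Karyopherins are the carrier proteins of transport between cytoplasm and nucleus, and 10 genes of this machinery were examined in rat foreskin after prenatal exposure to an antiandrogen. They were Kpna1, Kpna2, Kpna3, Kpna4, Kpna6, Kpnb1, Tnpo1, Xpo1, Cse1l and Ran. Members were taken as the probe sets annotated with exactly 1 of these symbols, which gave 11 of the 15209 probe sets with 1 gene symbol, since Kpna2 had 2. None of the 10 genes was in a probe set with several symbols. The list was drawn up with the flutamide comparison already known, where 1 Kpna2 probe set stood out. The differences between flutamide and corn oil litters are therefore given for members as descriptions, with no p-value. Counts of members past a threshold of the fit over all probe sets are also descriptions, and nothing is read from them.

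The tissue came from Sprague Dawley rat pups on postnatal day 5, born to dams that were gavaged daily from gestational day 16 to day 20. In the control group the 7 dams received corn oil, the vehicle. In the other group 7 dams received 5 mg/kg/day flutamide, a drug that blocks the androgen receptor. The RNA of 2 foreskins per litter was combined and hybridised to 1 Affymetrix Gene 1.0 ST array, so the litter was the replicate and a value is the mean of a mixed tissue. In such a mixture, fewer cells of a type and less RNA per cell cannot be told apart. Values are RMA values on the log2 scale, where a difference of 1 is a doubling. The markers of skin were present, with Krt14, a keratin of the basal epidermis, between 9.60 and 10.1 and Col1a1, a collagen of dermal fibroblasts, between 8.79 and 9.32 over the 14 samples. Levels of different probe sets were not read as relative amounts of RNA, because each has its own probes. Mean levels were used to name and select probe sets.

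In classical nuclear import, an importin alpha, the product of a Kpna gene, binds the basic localisation signal of a cargo and joins it to importin beta, the product of Kpnb1, which carries both through the nuclear pore. Ran, a small GTPase, releases the cargo inside the nucleus, and Cse1l, an exportin also called CAS, returns the importin alpha to the cytoplasm. Xpo1 exports proteins with a leucine-rich signal, and Tnpo1 imports RNA-binding proteins with another type of signal. Kpna2 is known for high levels in dividing cells, and the androgen receptor, the target of flutamide, is itself a cargo of the importin alpha and beta route.

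Promoter sequences are shown for Kpna2, Cse1l and Xpo1, the members with a probe set that followed mean cell cycle gene levels most closely across litters. For Kpna2 this was the dimmer of its probe sets, with a Pearson r of 0.91, while the brighter had 0.17 (group means removed). Which transcripts these probe sets measure cannot be told from the values. A link between the Kpna2 promoter shown and the cell cycle relation was not tested. They are the 250 bases before the RefSeq start site in the GRCr8 assembly, written 5′ to 3′ on the strand of the gene, with motifs in capitals. The Kpna2 window is chr10:92445842-92446091 on the minus strand, the Cse1l window chr3:176059988-176060237 on the plus strand and the Xpo1 window chr14:101434200-101434449 on the plus strand.
Kpna2: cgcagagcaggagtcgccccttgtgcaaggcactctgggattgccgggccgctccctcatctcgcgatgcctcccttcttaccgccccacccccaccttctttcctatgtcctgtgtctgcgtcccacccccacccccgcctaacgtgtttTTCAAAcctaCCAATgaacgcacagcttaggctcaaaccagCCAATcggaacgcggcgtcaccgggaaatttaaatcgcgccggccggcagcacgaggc
Cse1l: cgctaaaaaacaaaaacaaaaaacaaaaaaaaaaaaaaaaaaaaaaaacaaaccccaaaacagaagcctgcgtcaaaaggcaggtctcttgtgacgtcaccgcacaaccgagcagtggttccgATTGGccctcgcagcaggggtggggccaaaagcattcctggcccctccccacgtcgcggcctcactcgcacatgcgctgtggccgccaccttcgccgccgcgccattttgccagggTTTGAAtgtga
Xpo1: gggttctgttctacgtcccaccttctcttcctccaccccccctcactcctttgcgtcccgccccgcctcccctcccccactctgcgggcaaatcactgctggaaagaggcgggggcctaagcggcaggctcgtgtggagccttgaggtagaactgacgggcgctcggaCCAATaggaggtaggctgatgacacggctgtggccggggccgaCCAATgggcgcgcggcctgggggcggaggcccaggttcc

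The capitals mark 3 motifs searched on both strands. CCAAT is the box bound by NF-Y and reads as ATTGG on the other strand. TTTGAA is the core of the cell cycle homology region and reads as TTCAAA in reverse. GCGGGAA is an E2F type motif whose reverse form is TTCCCGC. None of the matches shown overlap. The Kpna2 window held 2 CCAAT boxes, starting 89 and 58 bases before the start site, and 1 TTTGAA match starting 99 bases before it. Cse1l had 1 CCAAT and 1 TTTGAA match, and Xpo1 had 2 CCAAT boxes. Of the 10 genes, 7 had a promoter in the table used: among these CCAAT was found in 4, TTTGAA in 3 (Kpna2, Cse1l and Ran) and GCGGGAA in 2 (Tnpo1 and Ran). Over all 27457 promoters of this length, CCAAT was found in 34.3%, TTTGAA in 16.0% and GCGGGAA in 3.58%. The median share of G and C bases was 67.6% in the 7 member promoters and 52.0% over all. The motif counts were not matched for this. A match is a run of letters and not a measured binding site.

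The brighter Kpna2 probe set (10748382, NCBI gene 85245) had the largest group difference of the members, which was known when they were chosen. Its values in corn oil litters ran from 8.27 through a median of 8.41 to 8.62, and in flutamide litters from 8.63 through 8.80 to 8.96. All 7 flutamide litters lay above all 7 corn oil litters, with the closest pair only 0.004 apart. Means were 8.44 ± 0.13 (SD, n = 7) and 8.82 ± 0.13 (SD, n = 7), a difference of 0.38 (SE 0.07) or a 1.30-fold level. Groups that did not overlap with flutamide higher were found for 0.0921% of all probe sets, and with flutamide lower for 0.0263%. Among the members this held for the brighter Kpna2 probe set and for no other. Leaving out any single litter gave a difference from 0.35 to 0.41.

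The dimmer Kpna2 probe set (10882761, same NCBI gene) had a difference near 0. It ran from 8.31 through 8.48 to 8.57 in corn oil and from 8.31 through 8.48 to 8.63 in flutamide litters, so the groups covered almost the same range. Means were 8.46 ± 0.08 and 8.48 ± 0.12 (SD, n = 7 each), a difference of 0.02 (SE 0.06), which was -0.004 without corn oil replicate 2 and -0.006 without flutamide replicate 6. Of 494 genes measured by several probe sets, 23 had a wider gap between the differences of their brightest pair than the 0.36 of Kpna2, against a median gap of 0.09. The Kpna2 gap holds the difference of the brighter probe set, known when the members were chosen, so its rank is no test. The RefSeq table also lists Kpna2l1, a protein-coding copy named after Kpna2 that has no probe set of its own name here. These values cannot tell which of the transcripts each probe set measures.

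**Figure D1:**
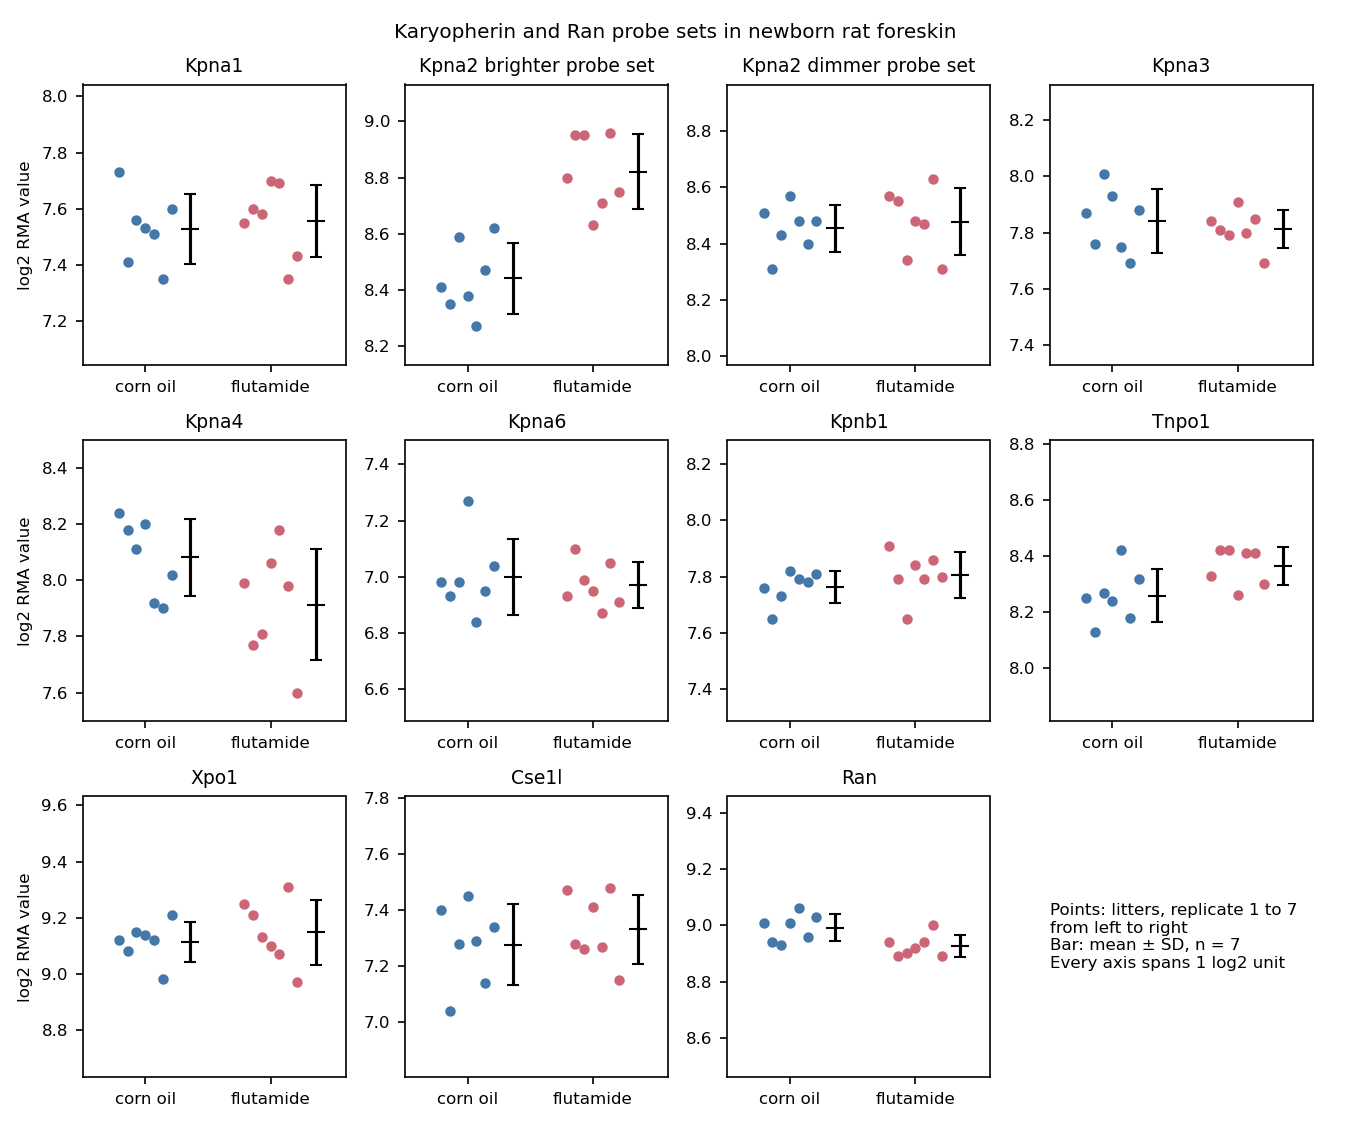
Log2 RMA values of the 11 member probe sets in 7 corn oil (blue) and 7 flutamide (red) litters, with the mean and SD of each group as a black bar and every axis spanning 1 log2 unit. The brighter Kpna2 probe set is the member whose groups do not overlap, at up to 8.62 in corn oil and from 8.63 in flutamide litters; the other panels overlap.

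The other importin alpha genes among the members showed smaller differences than the brighter Kpna2 probe set. Kpna5, an importin alpha gene that is no member, differed by 0.10 (SE 0.08) and is counted below with the other importins. Kpna4, an adaptor of the same subfamily as Kpna3, ran from 7.90 through 8.11 to 8.24 in corn oil and from 7.60 through 7.98 to 8.18 in flutamide litters. Flutamide litters were on the low side, 6 of 7 below the corn oil mean and 3 below every corn oil litter, but the ranges overlapped widely. The Kpna4 difference was -0.17 (SE 0.08), a 0.891-fold level. Leaving out the litters with the highest and the lowest SD of array values, corn oil 1 and flutamide 7, made it -0.09, and taking that SD into the fit made it -0.11.

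Kpna3 had a difference of -0.03 (SE 0.06), with corn oil litters between 7.69 and 8.01 and flutamide litters between 7.69 and 7.91. Kpna1 and Kpna6, adaptors of another subfamily, differed by 0.03 (SE 0.07) and -0.03 (SE 0.06). Their groups overlapped, Kpna1 from 7.35 to 7.73 in corn oil and from 7.35 to 7.70 in flutamide litters. Kpna6 ran from 6.84 to 7.27 in corn oil and from 6.87 to 7.10 in flutamide litters. RefSeq lists 9 pseudogenes named after Kpna1, 1 each after Kpna3 and Kpna4 and 6 after Ran, so their probe sets may also bind other transcripts.

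Among the carriers, Tnpo1 had the largest difference. It ran from 8.13 through 8.25 to 8.42 in corn oil and from 8.26 through 8.41 to 8.42 in flutamide litters. All 7 flutamide litters lay above the corn oil mean of 8.26, yet 6 of them lay within the corn oil range, and the difference was 0.11 (SE 0.05). Kpnb1, the partner of every importin alpha, differed by 0.04 (SE 0.05), with litters between 7.65 and 7.82 in corn oil and between 7.65 and 7.91 in flutamide.

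The exportins and Ran also overlapped between groups. Cse1l ran from 7.04 through 7.29 to 7.45 in corn oil and from 7.15 through 7.28 to 7.48 in flutamide litters, a difference of 0.06 (SE 0.07). Xpo1 ran from 8.98 through 9.12 to 9.21 and from 8.97 through 9.13 to 9.31, a difference of 0.04 (SE 0.06). Ran ran from 8.93 through 9.01 to 9.06 in corn oil and from 8.89 through 8.92 to 9.004 in flutamide litters, with 4 flutamide litters below every corn oil litter. The Ran difference was -0.07 (SE 0.05), a 0.955-fold level.

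In the limma fit over all 15209 probe sets with 1 symbol, 0 of the 11 member probe sets passed an adjusted p of 0.05, where 0.00658% of all did (1 probe set, of the spliceosome gene Snrpf). At an unadjusted p under 0.05 there was 1 member probe set, the brighter Kpna2, against 9.21% of all probe sets. With limma's trend and robust variance estimation the brighter Kpna2 probe set passed as well, as 1 of 2 called (0.0132% of all). Since the members were chosen on this comparison, these counts describe them and are not evidence for a change. The median member difference was 0.03, and that of all probe sets 0.004. Of the 11 differences 7 were above 0, as were 51.8% of all.

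The litters of a group lay close together for most members. The within-group SD of Ran was 0.05, lower than that of all but 0.164% of probe sets, and that of Kpnb1 was 0.07, at the 2.93 percentile. Kpna4 was the most variable, with an SD of 0.17 at the 72.1 percentile, while the median over all probe sets was 0.14. These ranks are over all probe sets and not over those of similar level. The brighter Kpna2 probe set had a within-group SD of 0.13. Its difference, known when the members were chosen, was larger in size than that of 99.5% of probe sets. No litter stood apart from the others of its group for any member by Dixon's rule, in 22 groups checked.

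Apart from the treatment, the question was whether the members rise and fall together from litter to litter. For this, each value was set against the mean of its own group, which removes the flutamide difference, and relations were tested over the 14 litters by shuffling litters within groups. No relation between the 2 Kpna2 probe sets was detected. Their Pearson r was 0.16 (permutation p = 0.609) and Spearman's rho 0.20 (permutation p = 0.513), and r was 0.18 without corn oil replicates 3 and 7, farthest from the median. It ranged from -0.001, without flutamide replicate 6, to 0.33 with single litters left out. The 494 genes measured by several probe sets had a median r of 0.23, and the 288 with both above the median level one of 0.36. An r below that of Kpna2 was found for 42.7% of the 494 and 30.6% of the 288.

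The dimmer Kpna2 probe set followed the mean of the cell cycle list, and no relation was detected for the brighter one. The cell cycle list held 26 measured genes of replication and mitosis, such as Mcm2 of the replicative helicase and Prc1 of the mitotic spindle. With the mean of this list, the dimmer probe set had an r of 0.91 and a rho of 0.96, with permutation p-values of 1e-05, the smallest that 100000 shuffles can give, and 2e-05. Adjusted over the 20 relations tested (both probe sets against 10 lists), they were 0.0002 and 0.0004. Within the groups r was 0.92 over corn oil and 0.92 over flutamide litters, and leaving out its farthest litters, corn oil 2 and flutamide 7, gave 0.88. In a comparison made after this was seen, no other of the 15209 probe sets had a higher r with the list mean, the list's own genes included.

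For the brighter probe set, r with the same list was 0.17 (permutation p = 0.593, adjusted 0.829) and rho 0.18 (permutation p = 0.553, adjusted 0.911), and r was 0.22 without corn oil replicates 3 and 7. It ranged from 0.08 to 0.26 with single litters left out, against 0.89 to 0.92 for the dimmer one. The difference between the correlations was not tested. Gene by gene, 23 of the 26 had a positive r with the dimmer probe set, with a median of 0.48. The highest were Prc1 (0.77), Mcm6 (0.77) and Mcm2 (0.64), and Birc5, which encodes survivin, had the lowest (-0.33). An r over 0.5 was found for 13 of the 26, while Top2a (0.05) and Aurka (0.06) lay near 0. With the brighter one 16 of 26 were positive, with a median of 0.11. The list mean itself was 6.999 ± 0.036 under corn oil and 6.95 ± 0.08 under flutamide (SD, n = 7 each). Of its 26 genes 19 had a difference below 0, against 7324 of all 15209 probe sets. None of the 26 passed the limma fit at an adjusted p of 0.05. At an unadjusted limma p under 0.05, 2 of the 26 were lower, against 3.66% of all probe sets.

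**Figure D2:**
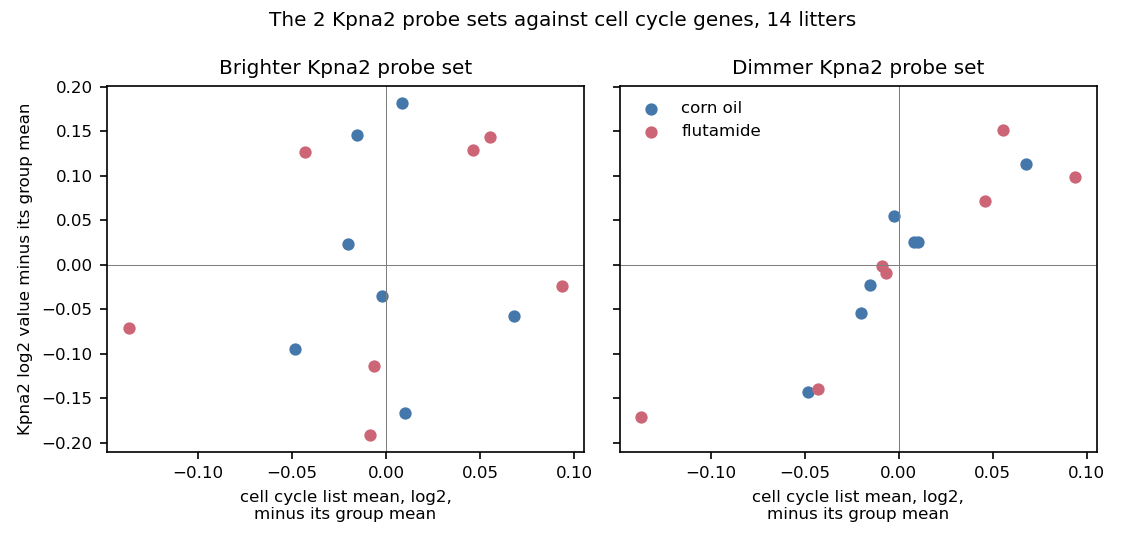
Each point is 1 of 14 litters (blue corn oil, red flutamide), with the mean log2 value of 26 cell cycle genes on the x axis and a Kpna2 probe set on the y axis, both minus their group mean. The dimmer probe set rises along the list (r = 0.91), and the brighter one scatters (r = 0.17).

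Other members were then set against the cell cycle list, a step added after the Kpna2 relation was seen and adjusted over these 9 probe sets. Cse1l, which recycles importin alpha, had an r of 0.76 (permutation p = 0.00046, adjusted 0.00414) and a rho of 0.84 (permutation p = 0.00066, adjusted 0.00594). Xpo1 had an r of 0.79 (permutation p = 0.00316, adjusted 0.0142) and a rho of 0.77 (permutation p = 0.00459, adjusted 0.0207). Without the farthest 2 litters, r was 0.66 for Cse1l and 0.64 for Xpo1. Kpnb1 passed on ranks (rho 0.73, adjusted permutation p = 0.0225) and not on values (r 0.57, adjusted permutation p = 0.107). The others did not pass, with r from 0.15 for Kpna1 to 0.49 for Ran.

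The members were also compared pair by pair. Among the 55 pairs of probe sets, 47 had a positive r, with a median of 0.35, and 1 passed after adjustment over the pairs. This was the dimmer Kpna2 probe set with Cse1l, its export factor, at an r of 0.86 (permutation p = 4e-05, adjusted 0.0022) and a rho of 0.89 (permutation p = 0.00014, adjusted 0.0077). Leaving out corn oil 2 and flutamide 7 gave an r of 0.76. Next in order were the dimmer Kpna2 with Xpo1 at 0.76, Xpo1 with Cse1l at 0.70 and the dimmer Kpna2 with Kpnb1 at 0.73, each with an adjusted permutation p of 0.0764. The brighter Kpna2 probe set had r between -0.25, with Kpna4, and 0.51, with Xpo1, and none of its pairs passed.

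The spread of values on each array was followed as well. The mean r over pairs was 0.31 for members and 0.15 for the 3802 probe sets with the highest mean levels, among which all members fall. The SD of the values on an array had an r of 0.66 with Xpo1, 0.65 with Cse1l, 0.56 with the dimmer Kpna2 and 0.56 with the cell cycle list, against a median of 0.34 for those 3802. It was as high for Kpna3 (0.65), Kpna1 (0.62) and Kpna4 (0.56), which did not pass with the cell cycle list, and 0.001 for Kpnb1. None of the 12 relations passed on values after adjustment (adjusted permutation p = 0.0556 for each of these but Kpnb1, at 0.998), and on ranks Kpna6 passed (rho 0.75, adjusted permutation p = 0.0392). The part of array spread in the member relations was not tested. When the ends of this spread, corn oil 1 and flutamide 7, were left out, r was 0.92 for the dimmer Kpna2 with the cell cycle list and 0.83 with Cse1l. Centring the samples on their medians made them 0.94 and 0.89.

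**Figure D3:**
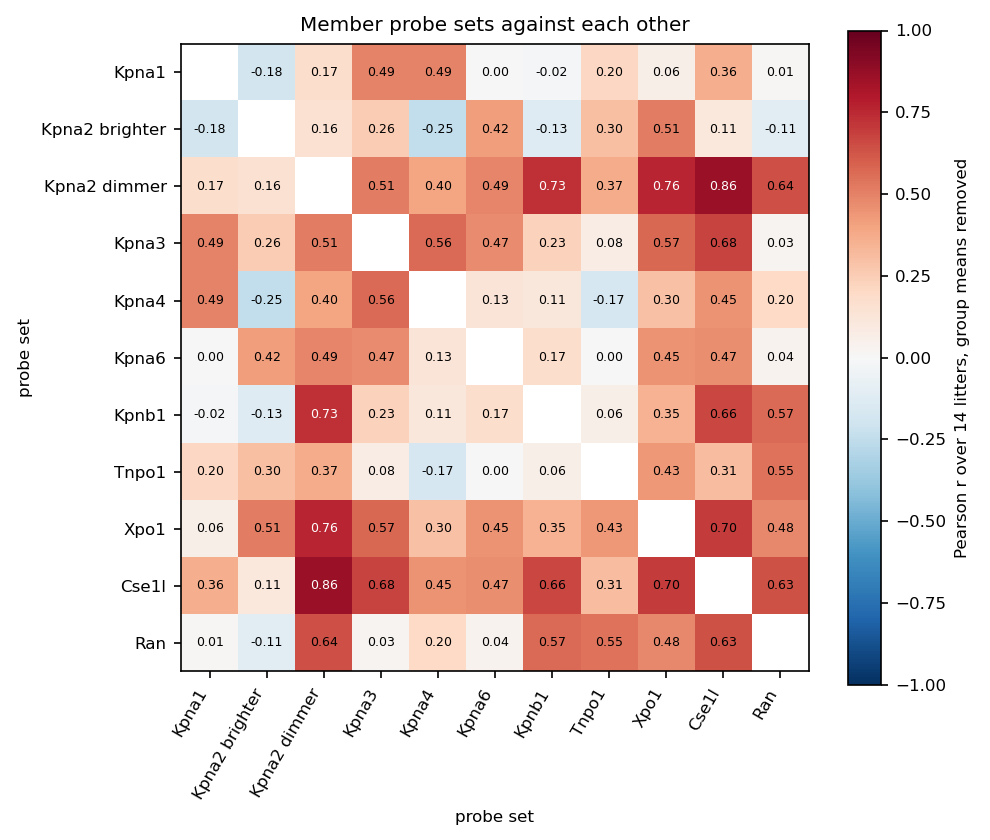
Pearson r over 14 litters between the 11 member probe sets, each value minus its group mean, on a colour scale from -1 (blue) to 1 (red). The dimmer Kpna2 probe set has its highest values with Cse1l (0.86), Xpo1 (0.76) and Kpnb1 (0.73), while the brighter one has 0.11, 0.51 and -0.13 with the same genes.

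The cell types of the tissue were followed with lists of marker genes, as the mean log2 value of each list. The brighter Kpna2 probe set had its highest r with the smooth muscle and pericyte list (0.53, permutation p = 0.0691, adjusted 0.276; rho 0.52, permutation p = 0.0688, adjusted 0.275) and passed with none. The mean of that list was 6.76 to 7.002 in flutamide and 6.96 to 7.15 in corn oil litters, and 10 of its 11 genes had a difference below 0. The hair follicle list, with 10 of 11 below 0, had means of 6.50 to 6.74 and 6.50 to 6.81. Differences below 0 also made up 7 of 8 in skeletal muscle, 6 of 7 in endothelium and 7 of 9 in macrophages, against 7324 of all 15209 probe sets. The ranges of these 5 lists overlapped between the groups, and none of their genes passed the limma fit at an adjusted p of 0.05. At an unadjusted p under 0.05, all with lower values, there were 5 genes in smooth muscle, 4 in hair follicle, 1 in skeletal muscle, 1 in macrophages and 0 in endothelium, against 3.66% of all probe sets. The part of these cell types in the Kpna2 difference was not tested.

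For the dimmer probe set, fibroblasts (r = 0.69), basal keratinocytes (r = 0.62) and endothelium (r = 0.60) came next after the cell cycle. Their adjusted permutation p was 0.120 on values, and 0.0668, 0.510 and 0.0668 on ranks. The defining epidermal and dermal lists hardly differed between groups, by -0.04 for basal keratinocytes, 0.01 for cornified epidermis and -0.01 for dermal fibroblasts. In the same order, 5 of 6, 3 of 7 and 3 of 9 of their genes had a difference below 0. Flutamide replicate 1 had an interferon response list mean of 5.54, against 4.32 to 4.59 in the other 13 litters, but lay within the range of the others in its group for both Kpna2 probe sets. Its Kpnb1 value of 7.91 was the highest of the 14.

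The named genes most like the brighter Kpna2 probe set over the 14 litters, group means removed, were Rac1 (r = 0.83), Ppp3cb (0.82), Eif6 (0.82), Cop1 (0.81) and Vkorc1 (0.80). Rac1 is a small GTPase of the actin cytoskeleton, and Eif6 a factor of large ribosomal subunit maturation. With the dimmer probe set, r was 0.05 for Rac1, 0.10 for Ppp3cb, 0.28 for Eif6, 0.39 for Cop1 and 0.52 for Vkorc1. The same rule, applied to the dimmer one after these were seen, gave Inpp5f (0.95), Srsf6 (0.94), Vps35 (0.92), Kidins220 (0.92) and Acadl (0.92). Their r with the brighter probe set lay between 0.08 and 0.17. None of these genes is on the cell cycle list, where the highest r with the dimmer probe set was 0.77 (Prc1). No gene was on both lists of 5.

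The wider nuclear transport machinery was read from a list of 62 measured genes with 64 probe sets, none of them members. It held other importins and exportins, regulators of the Ran cycle, mRNA export factors and nucleoporins, the proteins of the pore itself. None of the 64 passed the limma fit over all probe sets, where the smallest adjusted p was 0.353. At an unadjusted p under 0.05 there were 1 higher and 4 lower, against 5.56% and 3.66% of all probe sets. Differences ran from -0.25 to 0.18 with a median of 0.002, and 32 of the 64 were above 0.

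The 11 probe sets of other importins had a median difference of 0.08, with 8 above 0. Snupn, the import adaptor of spliceosomal small nuclear RNPs, was named at both ends of the list by its 2 probe sets. Probe set 10883456 was 5.77 ± 0.20 in corn oil and 5.52 ± 0.09 in flutamide litters (SD, n = 7 each), a difference of -0.25 (SE 0.08; limma adjusted p = 0.353). Probe set 10910252 was 6.77 ± 0.26 and 6.95 ± 0.19, a difference of 0.18 (SE 0.11; limma adjusted p = 0.628). Their ranges overlapped between groups, and the signs of the pair were opposite. Rangrf, a Ran import factor, differed by 0.09 (SE 0.06) and Tnpo3, the importer of SR splicing proteins, by 0.14 (SE 0.10).

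Of the 20 mRNA export probe sets 14 were below 0. Eny2, a subunit of the TREX-2 and SAGA complexes, stood at -0.22 (SE 0.07), at which limma gave an adjusted p of 0.362. Thoc1 of the THO complex and Gle1, an mRNA export factor at the pore, differed by -0.11 (SE 0.05) and -0.11 (SE 0.06). Zc3h11a, a zinc finger protein of mRNA export, had 2 probe sets with differences of opposite sign, 0.09 (SE 0.05) for 10817202 and -0.02 (SE 0.06) for 10767698. The 23 nucleoporins were split, 11 above and 12 below 0. Nup107, a scaffold nucleoporin, was 6.74 ± 0.09 in corn oil and 6.55 ± 0.15 in flutamide litters (SD, n = 7 each), a difference of -0.20 (SE 0.07; limma adjusted p = 0.366). Of 6 other exportins, Xpo5, which exports precursor microRNAs, had the largest difference at 0.13 (SE 0.06; limma adjusted p = 0.531). All 4 Ran cycle probe sets were above 0, by 0.03 to 0.08.

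**Figure D4:**
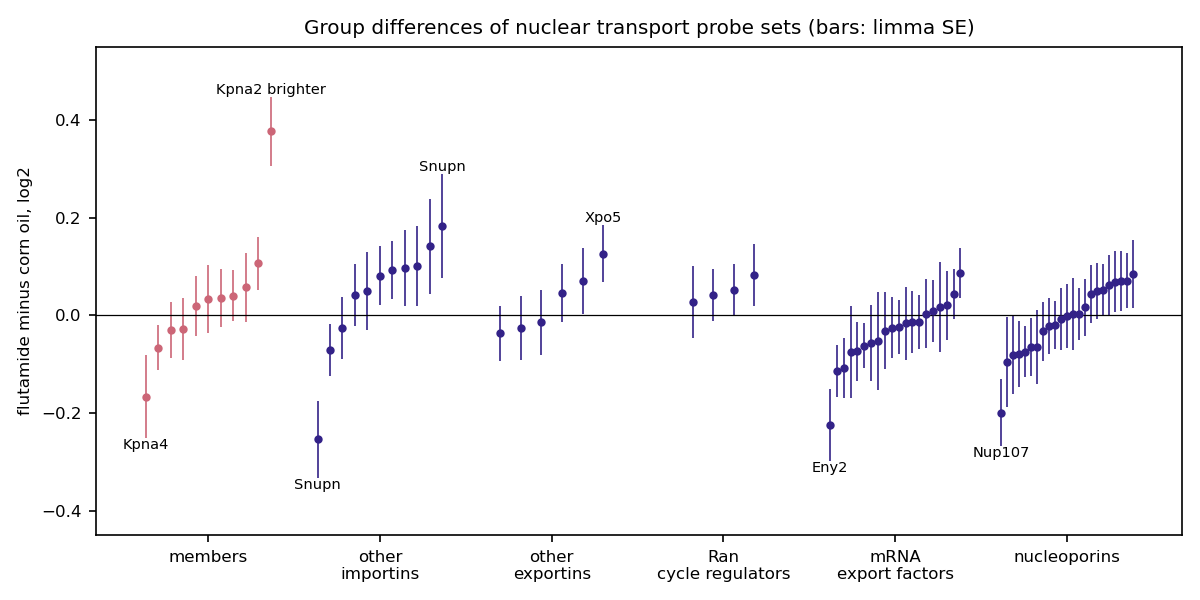
Flutamide minus corn oil differences on the log2 scale, with limma standard errors as bars, for the 11 member probe sets (red) and the 64 probe sets of the wider list by role (blue). The brighter Kpna2 probe set stands at 0.38, and the wider list runs from -0.25 to 0.18. That Kpna2 difference was known when the members were chosen, so its place beyond the wider list is no test.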

How the data were processed

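The authors deposited log2 values of 28826 probe sets in 14 samples. RMA is the method that the submitters' processing notes name; version and build: not given in the sources used here. That values are log2 was judged from their range. Gene names came from GEO's annotation of the platform. Of the 15209 with 1 symbol, 15178 were matched by gene number to RefSeq (GRCr8) and took the symbol given there. Another 306 had several symbols and 13311 none.

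The group comparison used limma 3.58.1 (R 4.3.3), two-sided, with Benjamini-Hochberg adjustment over the 15209 and a threshold of 0.05, tested on simulated data. Relations used 100000 shuffles of litters within groups, two-sided. The members, lists and motifs were chosen with earlier results of these data known. Of the wider list, the 5 smallest p-values per direction were named, and the 5 highest r to the brighter Kpna2 probe set, passing over predicted and chemosensory genes. Kpna5 was named besides, as an importin alpha gene. The litter number is not said to mark a shared dam or day. The arrays' number limits precision, and RMA removes shifts shared by most genes and shrinks dim differences. Protein sequences were not used here.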

Additional observations from a re-analysis of the deposited data

How the results depend on the processing

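The 1 call among all probe sets became 0 with the replicate number as a block, with samples centred on their medians, without both corn oil 1 and flutamide 7, with array SD in the model and with array weights, and 2 with trend and robust estimation. Leaving out single litters gave 0 to 1, with 0 for corn oil replicates 1, 3, 4, 5 and 7 and flutamide replicates 1, 2, 3 and 4. Member calls were 1 with trend and robust estimation and 0 otherwise. At an unadjusted limma p under 0.05 there were 1401 of the 15209 probe sets. Over other totals the count was 2822 of all 28826 and 795 of the 8813 above the median level. As the totals differ, these counts cannot be set against each other directly. For the wider list this count, 5, was 3 with the replicate block and 3 to 6 in the leave-one-out fits, at 3 without corn oil replicate 2 or flutamide replicate 2. The deviations of same-numbered litters correlated at -0.07 to 0.14, and 1 of 7 exceeded 0.1. Such correlations cannot tell whether the number marks a shared dam or day. The block changed no other call named here. Passing member pairs, 1 in the report, were 9 with samples centred on their medians, 3 without both corn oil 1 and flutamide 7, and 1 to 3 in the leave-one-out runs (2 without corn oil 3, corn oil 4 or flutamide 4, and 3 without flutamide 7). The cause was not tested. Both Kpna2 relations with the cell cycle list and the agreement of its probe sets kept their side of the threshold under all 16 alternatives. The small differences of Kpna3 and Kpna6 turned positive with array SD in the model (0.006 and 0.01), and that of Kpna6 without corn oil replicate 4 (0.02).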
